A study of Mus musculus with 12 samples.

Results

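The immunoglobulin kappa variable (Igkv) genes were read across 12 poly(A)+ RNA-seq libraries of common lymphoid progenitors (CLPs) sorted from mouse bone marrow. Members were all genes of the deposited TPM (length-scaled transcript abundance) table whose symbol starts with Igkv, which gave 81 of 47643 genes. Gene IDs are deposited without symbols. A gene table paired 58 of the 81 with an Igkv symbol without regard to their values. For the other 23 the name came only from lists of changed genes made on these same libraries and ordered by p, so those 23 were chosen on these data. Their calls between groups are counted apart from those of the 58. RefSeq lists 162 Igkv symbols, 102 V segments and 60 pseudogenes, and 14818 IDs of the table had no name, so Igkv genes beyond the 81 were not analysed here.

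CLPs were gated as Lin- Sca1lo cKitlo IL7Rα+ cells from age-matched adult male mice, 1 library per mouse and 4 per group. WT mice carried the intact Firre locus, which encodes a nuclear lncRNA. ∆Firre mice (labelled KO) lacked the whole Firre gene body and its promoter, deleted with a CMV-Cre line, on a C57BL/6J background. Firre rescue mice (labelled Rescue) carried the same deletion together with a Firre cDNA transgene under a tet-responsive element with a minimal CMV promoter and a CAG-rtTA3 activator, and were fed doxycycline chow. The transgene was therefore not expressed from the endogenous promoter, and transgene, activator and doxycycline cannot be told apart in these libraries. Firre was at 25.2 to 31.6 TPM in WT, at 0 in each ∆Firre library and at 59.9 to 174 TPM in the rescue. All 7 genes listed for the gate or for CLPs were measured, and none was called by limma in ∆Firre against WT. Il7r was at 353 to 525 TPM and Flt3 at 506 to 709 TPM over the 12 libraries. In the rescue, limma called Kit, the receptor behind the cKit gate, lower (48.2 to 62.3 TPM, where WT had 61.9 to 82.9 and ∆Firre 68.6 to 80.9) and Ly6d, a surface marker of B-lineage-biased CLPs, higher (1065 to 1560 TPM, where WT had 457 to 586 and ∆Firre 458 to 547) than in both other groups. Kit was no longer called against WT when libraries were rescaled by the median ratio. Whole reads recovered from the spacing of the TPM values gave 11043574 to 18262737 reads in WT, 14439177 to 17679866 in ∆Firre and 25962824 to 32788219 in the rescue. Library numbers of the rescue form a range of their own, so a difference between the rescue and another group cannot be told apart from one between library ranges.

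Kappa light chains are assembled from germline segments. A developing B cell joins 1 of many V segments to 1 of the J segments beside Igkc, the constant region, after the heavy chain has been rearranged, and every cell of a clone then carries the same V segment. CLPs precede that step, and the highest kappa transcript levels in bone marrow are known from antibody-secreting plasma cells. V segments are grouped into families by sequence likeness, and the number before the hyphen in the symbol is the family. Those in the opposite orientation to Igkc are joined by inversion of the intervening DNA, those in the same orientation by its deletion. In bulk libraries, fewer cells of a type and less RNA per cell cannot be told apart.

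The members lie on chromosome 6 (GRCm38, the mm10 build of the files), where the 79 placed ones span 67555636 to 70704177, upstream of Igkc at 70726435 to 70726754. In RefSeq 4 of them are pseudogenes. The members belong to 19 families. Because the variable part of a kappa chain is read from these segments, the germline 3′ ends of the highest members of the 12 libraries are shown first, each as its last 60 coding bases from the Gencode vM1 transcript set, where the entry exists. Capitals run from the last TANTNNTGN in that window (N is any base, coding strand) to the end of the germline coding sequence. The letters TANTNNTGN stand for the conserved tyrosine, the aromatic residue after it and the cysteine just before the third complementarity-determining region. Of 99 Igkv coding sequences of at least 250 bases in that set, 96.0% hold these letters in the last 60 bases.

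Igkv12-46: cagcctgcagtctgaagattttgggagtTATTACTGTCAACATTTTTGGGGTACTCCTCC
Igkv12-44: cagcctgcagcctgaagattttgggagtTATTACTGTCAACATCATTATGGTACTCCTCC
Igkv8-21: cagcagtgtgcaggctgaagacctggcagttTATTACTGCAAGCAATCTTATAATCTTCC
Igkv8-30: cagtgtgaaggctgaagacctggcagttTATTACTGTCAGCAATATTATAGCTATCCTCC
Igkv8-24: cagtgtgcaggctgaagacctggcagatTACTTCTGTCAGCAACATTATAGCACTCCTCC
Igkv6-23: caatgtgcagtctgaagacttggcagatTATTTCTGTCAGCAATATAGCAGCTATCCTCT
Igkv6-15: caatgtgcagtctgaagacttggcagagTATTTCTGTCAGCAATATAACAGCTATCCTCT
Igkv1-88: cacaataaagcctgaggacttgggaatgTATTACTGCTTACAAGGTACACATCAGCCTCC
Igkv14-111: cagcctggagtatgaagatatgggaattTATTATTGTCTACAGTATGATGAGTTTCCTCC

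The last 300 coding bases, nearly the whole variable exon, are shown for Igkv6-15, the member of highest mean level, and for Igkv14-111, the only member above 0 in all 12 libraries, with the same capitals.

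Igkv6-15: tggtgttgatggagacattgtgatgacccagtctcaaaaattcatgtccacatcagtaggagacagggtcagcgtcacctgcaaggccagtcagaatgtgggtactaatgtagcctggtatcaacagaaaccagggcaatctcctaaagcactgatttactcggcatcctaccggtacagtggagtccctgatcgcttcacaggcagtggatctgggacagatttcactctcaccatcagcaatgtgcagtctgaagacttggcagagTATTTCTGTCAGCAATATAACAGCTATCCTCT
Igkv14-111: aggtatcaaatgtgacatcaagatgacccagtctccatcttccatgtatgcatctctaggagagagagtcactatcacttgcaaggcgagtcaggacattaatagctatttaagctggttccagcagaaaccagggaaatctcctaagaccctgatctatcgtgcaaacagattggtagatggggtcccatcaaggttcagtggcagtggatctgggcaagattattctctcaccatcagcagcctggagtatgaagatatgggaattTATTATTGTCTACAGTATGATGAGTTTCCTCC

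Members of a family resemble each other closely. Igkv6-15 and Igkv6-23 shared 94.5% of aligned bases and Igkv12-44 and Igkv12-46 95.4%, against 59.0% between Igkv6-15 and Igkv1-88. Over the 74 members with such a sequence, the nearest other Igkv gene was 65.6% to 98.6% identical (median 90.9%), and it belonged to the same family for 67 of them. How reads that fit several of these genes were counted is not given in the sources used here, so levels within a family are less certain than its sum.

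The question for the series was how deletion of Firre, and a Firre transgene in the deleted background, changed RNA levels in CLPs. Summed over the 81 members, Igkv RNA was 2.07 times as high in ∆Firre as in WT by group means, and was far lower in the rescue. The sum was 3739, 5066, 3479 and 5431 TPM in WT replicates 6, 8, 10 and 11 (mean 4429 ± 964, SD, n = 4). It was 9631, 9894, 9722 and 7452 TPM in ∆Firre replicates 8, 9, 11 and 12 (mean 9175 ± 1153, SD, n = 4). It was 966, 18.0, 28.5 and 28.1 TPM in rescue replicates 1 to 4 (mean 260 ± 470, SD, n = 4). The 3 groups did not overlap, and 1 rescue library stood far above the other 3. The difference in mean log2(sum + 1) was 1.07 for ∆Firre against WT, -7.18 for rescue against ∆Firre and -6.11 for rescue against WT. These are descriptions with no test, since the members were chosen with results known. Without rescue replicate 1 the latter 2 differences were -8.49 and -7.42. Within the library number range that holds WT and ∆Firre replicates 8 and 11, the sums were 5066 and 5431 against 9631 and 9722 TPM, and within the other, with WT 6 and 10 and ∆Firre 9 and 12, they were 3739 and 3479 against 9894 and 7452 TPM. Members thus held 0.443% ± 0.0964 of all TPM in WT and 0.917% ± 0.115 in ∆Firre (SD, n = 4).

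By group means both naming groups showed this order. The 23 members named only in lists of changed genes were chosen on these data, so their order adds no support. The 58 members named by the gene table summed to 1896 ± 386 TPM in WT, 4564 ± 1770 in ∆Firre and 159 ± 306 in the rescue (SD, n = 4), and the 23 others to 2533 ± 899, 4611 ± 893 and 101 ± 164. Among the 58, the lowest ∆Firre library (2274 TPM, replicate 12) lay below the highest WT library (2469 TPM, replicate 8), so for them these 2 groups overlapped.

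Igkc, which every kappa transcript shares, is not a member and was measured beside them. It was at 8709, 14169, 10192 and 11967 TPM in WT replicates 6, 8, 10 and 11, at 22960, 32650, 30801 and 16161 TPM in ∆Firre replicates 8, 9, 11 and 12, and at 2392, 1760, 678 and 20.0 TPM in rescue replicates 1 to 4. The groups did not overlap. For ∆Firre against WT the limma difference in log2(TPM + 1) was 1.16 ± 1.10 (SE, limma adjusted p = 0.999). That SE comes from 1 fit of all 12 libraries, so it includes the wide spread of the rescue. Limma gave an adjusted p of 0.419 with only these 2 groups in the fit, and 0.494 with the library number range as a block. The two-sided exact permutation test of the 2 groups alone gave p = 0.0286, the smallest that 70 labelings allow. Igkc fell by 5.64 ± 1.10 from ∆Firre to the rescue (limma adjusted p = 0.00495) and was 4.48 lower than in WT (limma difference -4.48 ± 1.10, adjusted p = 0.0168). The exact permutation p was 0.0286 for both.

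**Figure D1:**
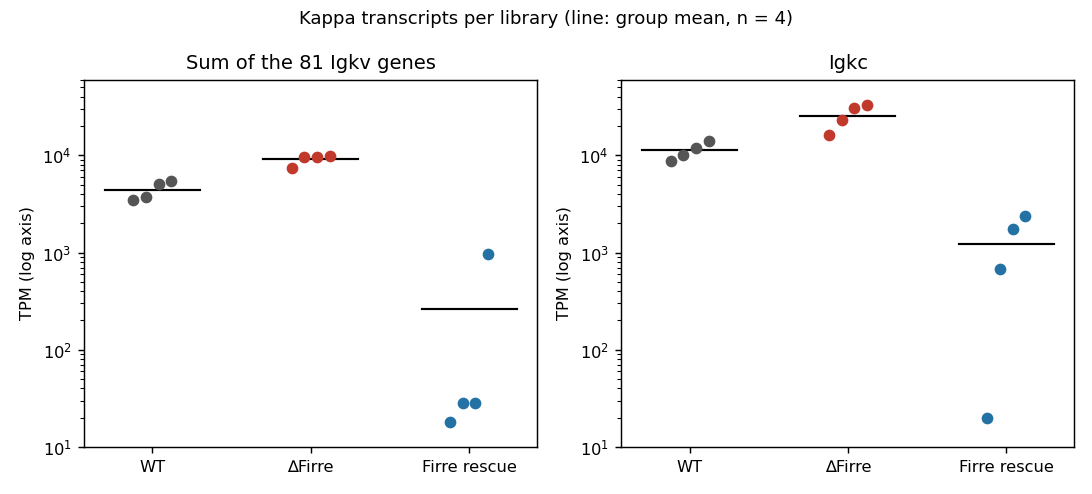
Summed TPM of the 81 Igkv genes (left) and TPM of Igkc (right) in each library, on a log axis, with the group mean as a line. The 4 ∆Firre libraries lie above the 4 WT libraries in both panels, and the rescue libraries lie lowest, with replicate 1 at 966 TPM of Igkv against 18.0 to 28.5 TPM in the other 3.

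The ratio of summed Igkv to Igkc was alike in WT and ∆Firre and irregular in the rescue. It was 0.396 ± 0.0545 in WT and 0.375 ± 0.0777 in ∆Firre (SD, n = 4). In rescue replicates 1 to 4 it was 0.404, 0.0102, 0.0421 and 1.41. Rescue replicate 2 thus held 1760 TPM of Igkc, from 10437 reads, but only 73 reads over the 81 members. Igkv genes among the unnamed IDs were not analysed here, so the sum, this ratio and the highest member of a library describe the 81 named genes only. Rescue replicate 4 held about as few of either, 100 Igkc reads and 98 Igkv reads.

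The dominant member changed from mouse to mouse. The highest member was another one in each of the 8 WT and ∆Firre libraries. In WT it was Igkv12-46 (590 TPM, replicate 6), Igkv8-21 (767 TPM, replicate 8), Igkv8-30 (469 TPM, replicate 10) and Igkv12-44 (1898 TPM, replicate 11). In ∆Firre it was Igkv6-23 (1368 TPM, replicate 8), Igkv13-85 (866 TPM, replicate 9), Igkv8-24 (1221 TPM, replicate 11) and Igkv6-15 (2181 TPM, replicate 12). The highest member held 15.8%, 15.1%, 13.5% and 35.0% of the WT sums and 14.2%, 8.75%, 12.6% and 29.3% of the ∆Firre sums, in the same order. It took 5, 5, 5 and 2 members to reach 50% of the sum in WT and 7, 8, 6 and 3 in ∆Firre, and 90% took 12 to 16 in WT and 12 to 23 in ∆Firre. WT replicate 11 and ∆Firre replicate 12 were the most concentrated of their groups and the ranges overlapped.

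More members were seen in ∆Firre, from more Igkv reads. With at least 3 reads there were 25 to 30 members in WT and 31 to 44 in ∆Firre, from 6501 to 9408 and 15134 to 22208 Igkv reads. At an equal draw of 6501 Igkv reads, the smallest number in these 8 libraries, 29.0 to 39.8 members were expected in WT (mean 33.1 ± 4.80, SD) and 32.1 to 46.0 in ∆Firre (mean 40.4 ± 6.77), and these ranges overlapped. The inverse Simpson index, an effective number of equally used members, was 5.86 to 12.7 in WT and 7.07 to 21.3 in ∆Firre.

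**Figure D2:**
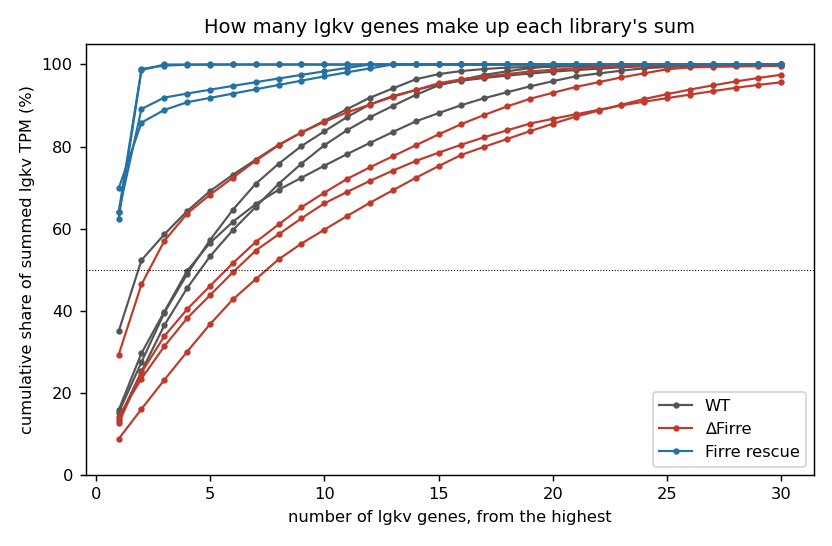
Cumulative share of the summed Igkv TPM (percent) against the number of Igkv genes counted from the highest, 1 curve per library, coloured by group, with a dotted line at 50%. Rescue curves pass 50% at the first gene; WT curves do so at 2 or 5 genes and ∆Firre curves at 3 to 8.

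The rescue libraries rested on few members. In rescue replicate 1, Igkv1-88 (618 TPM) and Igkv6-15 (337 TPM) held nearly the whole sum of 966 TPM, with 64.0% in Igkv1-88 alone. Igkv1-88 was at 0 in the other 3 rescue libraries and at 0 to 195 TPM in WT and ∆Firre. In rescue replicates 2 and 4 the highest member was Igkv14-111, at 11.2 and 19.6 TPM, and in replicate 3 it was Igkv6-15 at 18.2 TPM. Over all 4 rescue libraries, 7 members reached 3 reads in at least 1 library: Igkv14-111 in all 4, Igkv6-15 and Igkv4-91 in 2 each, and Igkv1-88, Igkv1-99, Igkv8-30 and Igkv10-96 in 1. A count of 3 reads on a 350-base gene amounts to 0.769 to 0.938 TPM in the rescue and 1.43 to 2.44 TPM in the other groups, as counting error alone allows, so the rescue libraries, with more reads each, could show lower levels.

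Members were shared between mice only in part. Of the 81, 6 had at least 3 reads in each of the 8 WT and ∆Firre libraries, namely Igkv4-55, Igkv4-72, Igkv6-15, Igkv10-96, Igkv12-44 and Igkv14-111. As many reads were found in 6 or more of these 8 libraries for 21 members. For 47 members they were found in 3 libraries or fewer, and 10 of these had them in none. In all, 46 members passed 100 TPM in at least 1 of these libraries. The 10 highest members together held 48.8% of the Igkv TPM of the 8 libraries. Pairs of WT libraries shared 1 to 5 of their 10 highest members, pairs of ∆Firre libraries 2 to 4, and a WT and a ∆Firre library 2 to 6. Spearman's rho across the 81 members was 0.216 to 0.464 within WT, 0.289 to 0.471 within ∆Firre and 0.177 to 0.604 between the groups; genes are not independent replicates and this is a description.

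The spread between mice of a group was accordingly wide. Among members with a group mean of at least 1 TPM, the median coefficient of variation was 1.51 in WT (46 members) and 1.32 in ∆Firre (59 members), against 0.178 and 0.150 over the other genes. Igkc itself varied by 0.209 in WT and 0.296 in ∆Firre. Of the 7 members above 0 in 1 library only, the highest were Igkv2-112 at 162 TPM in WT replicate 11, Igkv4-50 at 17.5 TPM in ∆Firre replicate 8 and Igkv4-69 at 16.3 TPM in WT replicate 8.

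Families 4, 6, 8 and 12 carried most of the signal in WT and ∆Firre. They also hold many of the members, 26, 6, 8 and 7 of the 81. Whether their share exceeds what these numbers of members would give was not tested. As a share of the summed Igkv TPM, family 12 held 19.1% ± 17.7, family 8 held 19.5% ± 18.0, family 4 held 14.6% ± 9.37 and family 6 held 8.38% ± 5.97 in WT (SD, n = 4). In ∆Firre family 6 held 23.3% ± 8.15, family 4 held 19.2% ± 9.72, family 8 held 11.5% ± 7.25 and family 12 held 9.90% ± 5.90. Except for family 6, the group means differed by less than the SD among WT libraries. For family 6 the WT libraries held 1.90% to 14.0% and the ∆Firre libraries 13.3% to 33.1%, and the ranges overlapped. In TPM, family 6 was at 65.9 to 758 in WT and 1318 to 2468 in ∆Firre, which did not overlap. That family's share rests on members named only in the lists: over the 58 others it was 7.32% ± 10.4 in WT and 5.65% ± 2.33 in ∆Firre (SD, n = 4), so that the direction turned. Family 4 turned as well, from 14.6% and 19.2% over all members to 23.5% ± 16.2 in WT and 18.8% ± 11.4 in ∆Firre. The WT shares rest on single libraries: family 8 held 11.8% without WT replicate 8, and family 12 held 12.4% without WT replicate 11.

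The leading family changed from mouse to mouse. It was family 12 in WT replicates 6 (28.7%) and 11 (39.2%), family 8 in WT replicate 8 (42.6%) and family 4 in WT replicate 10 (26.3%). Among the ∆Firre libraries it was family 6 in replicates 8 (24.6%), 11 (22.2%) and 12 (33.1%), and family 4 in replicate 9 (33.0%). In the rescue, replicate 1 was led by family 1 (64.0%), replicates 2 and 4 by family 14 (62.4% and 69.8%) and replicate 3 by family 6 (64.0%). Family 18, with a single member, was at 0 throughout.

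**Figure D3:**
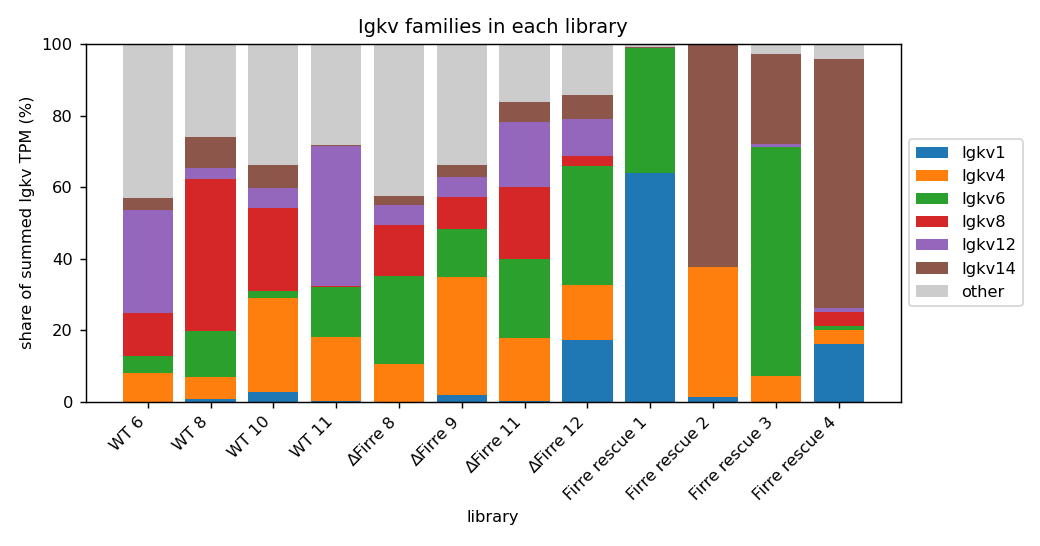
Share of the summed Igkv TPM (percent) held by families 1, 4, 6, 8, 12 and 14 and by all others, 1 stacked bar per library. The leading family differs between mice of a group, from 42.6% for family 8 in WT replicate 8 to 39.2% for family 12 in WT replicate 11, and each rescue bar is mostly 1 family.

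Signal came from the whole span of the locus. Cut into 4 equal stretches of chromosome 6 from 67555636 to 70704177, stretch 1, the farthest from Igkc, holds 11 members, stretch 2 holds 19, stretch 3 holds 26 and stretch 4, the nearest, 23. Stretches 1 to 4 gave 11.6% ± 6.87, 21.6% ± 6.75, 34.4% ± 17.2 and 32.4% ± 18.1 of the placed Igkv TPM in WT, and 12.4% ± 2.80, 23.5% ± 8.53, 26.1% ± 5.85 and 37.9% ± 11.9 in ∆Firre (SD, n = 4). Over all members, none of the 4 shares differed between these groups by more than the SD among the WT libraries. Over the 58 named by the gene table, stretch 2 held 22.4% ± 17.0 in WT and 40.8% ± 26.5 in ∆Firre, a difference above the WT SD but within the ∆Firre SD, and stretch 4 turned to 42.6% ± 29.4 and 31.1% ± 19.4. In the rescue they held 39.4% ± 32.6, 31.7% ± 25.2, 2.29% ± 2.63 and 26.6% ± 29.0, shares that in 3 of its 4 libraries describe 73 to 107 reads. Stretch 3, which holds much of family 4 and Igkv12-44, was at 1510 ± 930 TPM in WT and 2429 ± 762 in ∆Firre, against 0.724 ± 0.670 in the rescue.

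By orientation, taken from the vM1 annotation for 75 members, 56 lie opposite to Igkc and 19 in the same direction. The 56 held 82.8% ± 6.55 of the signal in WT and 77.6% ± 7.15 in ∆Firre (SD, n = 4), with ranges of 76.4% to 91.4% and 70.7% to 86.1% that overlapped.

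**Figure D4:**
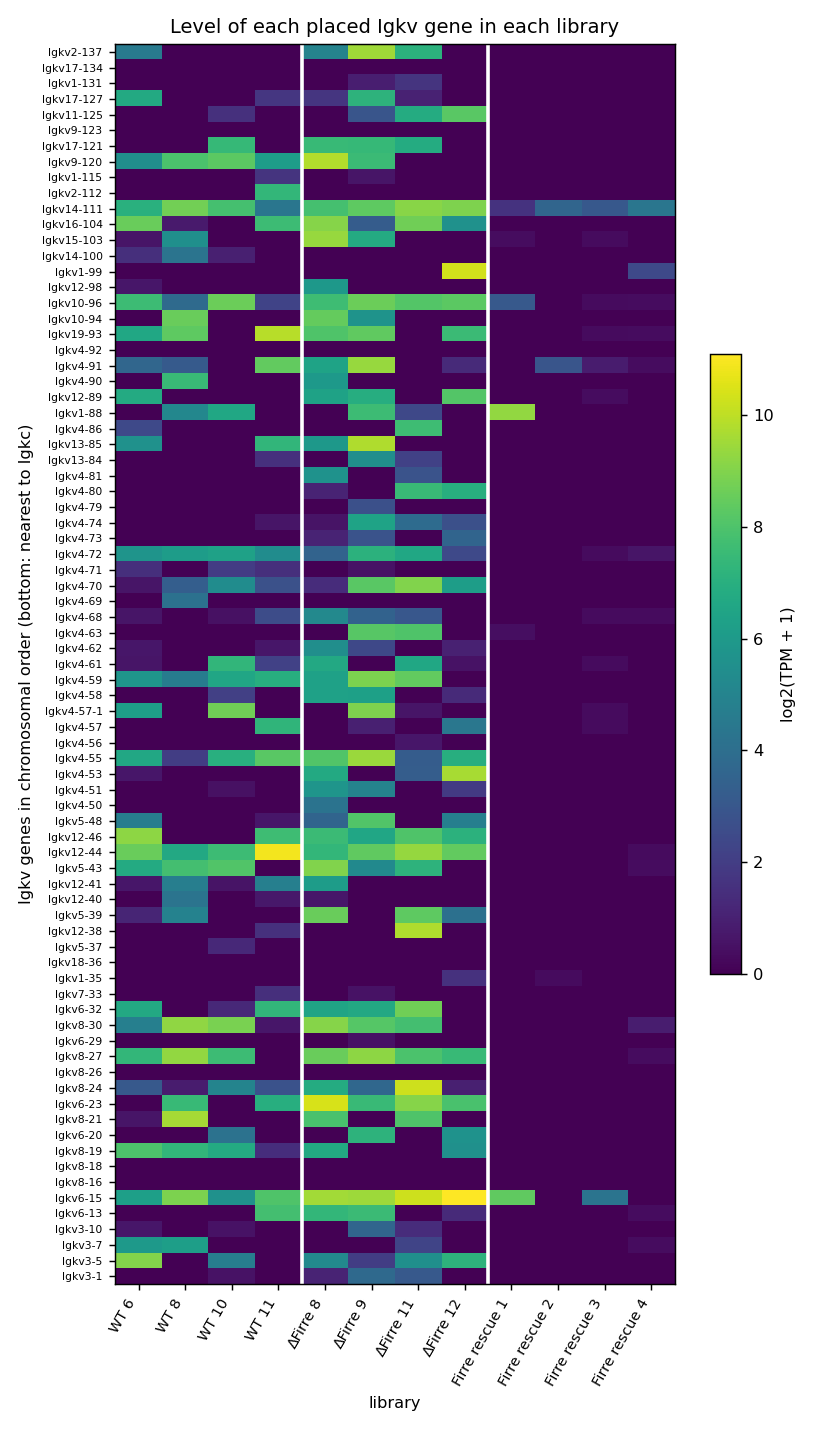
Level of the 79 placed Igkv genes (rows, in chromosomal order with the nearest to Igkc at the bottom) in each of the 12 libraries (columns), as log2(TPM + 1). WT and ∆Firre libraries show high genes over the whole locus, which are shared in part between libraries, within and between these groups. Rescue libraries are near 0 apart from Igkv14-111, Igkv1-88, Igkv6-15 and a few low entries.

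Differences of single members were fitted with limma on log2(TPM + 1) over the 14479 genes with a mean of at least 1 TPM, adjusted over all of them and called at an adjusted p of 0.1. That minimum was passed by 41 of the 58 members with an independent name and by each of the 23 others. The 17 below it were 8 at 0 in each library and 9 at low levels.

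In ∆Firre against WT no member was called, of 41 or of 23 (limma, smallest adjusted p = 0.889), where 0.0207% of all genes were, 0.0138% higher and 0.00691% lower. Limma-voom on recovered reads also called 0. An unadjusted p under 0.05 was reached by 7 of the 41 and 9 of the 23, against 5.30% of all genes. The 7 became 2 (4.88% of the 41) with only these 2 groups in the fit or with the library number range as a block, and 3 with limma-voom, where the 9 became 5. Without the filter, 38 of the 58 members had a higher mean log2 value in ∆Firre, 12 a lower one and 8 were at 0, and the median difference of the 50 above 0 was 1.30, while the median over all genes was -0.02. The filter favours members high in 1 group: of the 41 that passed, 11 had a WT mean under 1 TPM and 3 a ∆Firre mean under 1 TPM. Of the 23, 14 were higher and 9 lower, with a median of 1.53, and 7 and 2 of them had such a low mean in WT and in ∆Firre. Only Igkv6-15 and Igkv6-23 had all ∆Firre libraries above all WT libraries, 2 of the 23 and 0 of the 41, against 0.843% of all genes. None had all ∆Firre libraries below all WT libraries, which 4.49% of all genes had.

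Igkv6-15, at 6:70406469-70406992, was at 75.8, 478, 47.2 and 264 TPM in WT replicates 6, 8, 10 and 11 and at 758, 703, 1202 and 2181 TPM in ∆Firre replicates 8, 9, 11 and 12. It was at 337, 0, 18.2 and 0 TPM in the rescue. Every ∆Firre library exceeded every WT library, and the limma difference was 2.89 ± 1.51 (SE, adjusted p = 0.934). Igkv6-23, at 6:70260409-70260933, was at 0, 178, 0 and 121 TPM in WT and at 1368, 180, 540 and 237 TPM in ∆Firre, with a difference of 5.12 ± 1.51 (limma adjusted p = 0.889). The gap between the highest WT and the lowest ∆Firre library of Igkv6-23 was small, 178 against 180 TPM.

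Igkv4-53 and Igkv4-63 were present almost only in ∆Firre. Igkv4-53 was at 106, 0, 8.59 and 790 TPM in the 4 ∆Firre libraries, at 0.573 TPM in WT replicate 6 and at 0 elsewhere (∆Firre against WT, 4.74 ± 1.46, limma adjusted p = 0.889). Igkv4-63 was at 298 and 259 TPM in ∆Firre replicates 9 and 11, at 0 in the other 2 and in WT, and at 0.311 TPM in rescue replicate 1 (4.06 ± 1.64, limma adjusted p = 0.929). Each passed 100 TPM in 2 of 4 ∆Firre mice.

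In the rescue against ∆Firre, which shares the ∆Firre libraries with the comparison above, 16 of the 41 members were called lower and 0 higher (39.0%, limma), where 27.9% of all genes were called, 19.3% lower and 8.58% higher. That background depends on scaling: with libraries rescaled by the median ratio 12.9% of all genes were called lower and 13.2% higher, and 16 of the 41 were again called lower. The median difference over the 41 was -3.39, against -0.16 over all genes, and -2.46 over the 50 above 0 without the filter, against -0.08. Of the 23, 17 were called lower and 0 higher, with a median of -4.51, and the 17 became 10 at an adjusted p of 0.05, and also without ∆Firre replicate 9 or without rescue replicate 4, and 11 without ∆Firre replicate 8 or without rescue replicate 1. The 16 became 10 of 50 (20.0%) without filter on low values, where 9.12% of all genes were lower, and 10 of 41 (24.4%) at an adjusted p of 0.05, against 12.4%. With limma-voom on recovered reads they became 5 of 41 (12.2%), below the 15.3% of all genes. Groups did not overlap, with the rescue lower, for 7 of the 41 and 7 of the 23, against 15.6% of all genes; with the rescue higher this held for 0 members, against 6.31%.

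Igkv12-44, at 6:69814631-69815100, showed the largest drop relative to its error. It was at 372, 103, 195 and 1898 TPM in WT and at 159, 330, 638 and 341 TPM in ∆Firre, but at 0, 0, 0 and 0.265 TPM in the rescue. The difference to ∆Firre was -8.27 ± 0.69 (limma adjusted p = 6.03e-05), and WT and ∆Firre overlapped. Igkv14-111, at 6:68256404-68256869, was at 130, 420, 223 and 19.5 TPM in WT, at 225, 320, 551 and 497 TPM in ∆Firre, and at 2.08, 11.2, 7.19 and 19.6 TPM in the rescue, where it was the member found in all 4 mice. It fell by 5.40 ± 0.79 from ∆Firre to the rescue (limma adjusted p = 0.000957).

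Of the members named by the gene table, Igkv8-27, at 6:70171809-70172270, changed most. It was at 162, 624, 196 and 0 TPM in WT and 375, 598, 245 and 175 TPM in ∆Firre, and at 0 in 3 rescue libraries and 0.295 TPM in replicate 4 (-8.20 ± 1.45 against ∆Firre, limma adjusted p = 0.00292). Igkv4-72, at 6:69226854-69227383, was the least variable member in WT (coefficient of variation 0.291), at 52.8, 69.3, 81.6 and 41.1 TPM. It was at 10.7, 137, 96.0 and 4.44 TPM in ∆Firre and at most 0.528 TPM in the rescue, and fell by 4.70 ± 0.82 (limma adjusted p = 0.00268). Igkv12-46, at 6:69764523-69764992, was at 188, 93.3, 261 and 140 TPM in ∆Firre and at 0 in all rescue libraries, at least 862-fold lower when the rescue is set at 3 reads over the group. The same bound for Igkv6-23 was at least 2880-fold lower. WT held 590, 0, 0 and 199.5 TPM of Igkv12-46, so it was not found in 2 of 4 WT mice either.

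Further members were called lower in the rescue than in ∆Firre. The differences were -7.19 ± 1.17 for Igkv10-96 (limma adjusted p = 0.00176), -6.92 ± 1.32 for Igkv4-55 (limma adjusted p = 0.00438) and -6.20 ± 1.36 for Igkv4-70 (limma adjusted p = 0.00912). Igkv6-15 fell by 6.92 ± 1.51 (limma adjusted p = 0.00872), with rescue replicate 1 at 337 TPM against 0 to 18.2 TPM in the others. With limma-voom on recovered reads the calls of Igkv8-27 (adjusted p = 0.109), Igkv4-55 (adjusted p = 0.17) and Igkv4-70 (adjusted p = 0.135) were lost. By family, 5 of 15 tested members of family 4 named by the gene table were called lower, 1 of 3 in family 6, 3 of 4 in family 8 and 2 of 4 in family 12. Over all genes 19.3% were called lower, and 12.9% after rescaling by the median ratio. Of those named only in the lists it was 7 of 7, 2 of 2, 0 of 1 and 1 of 3. For other families named by the gene table the count was 2 of 2 in family 5 and 1 of 1 in family 16. It was 1 of 2 in families 2 and 17, 0 of 2 in families 1, 3 and 13, and 0 of 1 in family 15. Members passed the minimum of 1 TPM mainly through WT and ∆Firre, which favours a drop in the rescue, so these counts are a description. Several dominant members were not called: Igkv13-85 differed by -3.92 ± 2.11 (limma adjusted p = 0.212), Igkv8-21 by -3.99 ± 2.27 (limma adjusted p = 0.240) and Igkv1-88 by -0.19 ± 2.35 (limma adjusted p = 0.966), each being high in only some mice.

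In the rescue against WT, 3 of the 41 members were called lower (7.32%, limma) where 19.4% of all genes were, and 10 of the 23. Rescaled by the median ratio, 3 of the 41 were again called lower, where 8.62% of all genes were called lower and 9.08% higher. No member was called higher, against 4.82% of all genes, or 24.3% in either direction. All rescue libraries lay below all WT libraries for 3 of the 41 and 6 of the 23, against 14.5% of all genes, and above them for 0, against 3.55%. The median difference was -1.61 over the 41 (-1.19 over the 50 without the filter) and -3.44 over the 23, against -0.21 over all genes. The 3 were Igkv4-72 (-5.68 ± 0.82, limma adjusted p = 0.00102), Igkv8-27 (-5.97 ± 1.45, limma adjusted p = 0.0164) and Igkv8-30 (-5.67 ± 2.01, limma adjusted p = 0.0731). Their number was 5 without WT replicate 8 or without WT replicate 10. It was 6 (14.6%) with a pseudocount of 0.1 and 1 (2.44%) with limma-voom, where 19.8% and 10.1% of all genes were called lower. With limma-voom the 10 of the 23 became 3. Only Igkv4-72 of the 3 was still called with limma-voom, and Igkv8-30 was also lost when any 1 rescue library was left out. Among the 23, Igkv12-44 differed by -8.35 ± 0.69 (limma adjusted p = 8.72e-05, but 0.122 with limma-voom), Igkv14-111 by -3.82 ± 0.79 (limma adjusted p = 0.00765) and Igkv9-120 by -6.97 ± 1.82 (limma adjusted p = 0.0223). Igkv9-120 was at 44.1, 246, 316 and 68.4 TPM in WT and at 0 in the rescue, but also at 0 in 2 of 4 ∆Firre libraries. Of the 41, all 3 called against WT were among the 16 called against ∆Firre, and of the 23, 8 of the 10 were among the 17.

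**Figure D5:**
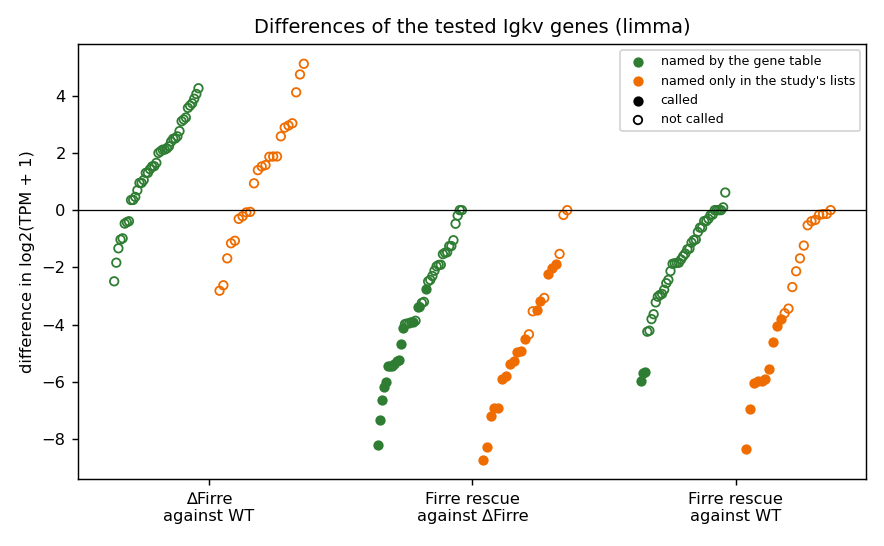
Difference in log2(TPM + 1) of the 64 tested Igkv genes in each comparison, split by how the gene was named; filled points were called by limma at an adjusted p of 0.1. No point is filled for ∆Firre against WT, and the filled points of the other 2 comparisons all lie below 0.

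Other genes of the kappa system and of the cells that use it were read from fixed lists, by the same limma calls. Beside the counts of these lists and those below, 19.3% of all genes were called lower and 8.58% higher in the rescue than in ∆Firre. Against WT the shares were 19.4% lower and 4.82% higher. Rescaled by the median ratio they were 12.9% and 13.2% against ∆Firre, and 8.62% and 9.08% against WT. Igkj1 to Igkj5, the joining segments, and Igkc were called lower in the rescue against both groups, 6 of 6. Of 6 lambda light chain genes 5 were lower in both. Of 4 tested heavy chain constant genes, Igha and Ighm were called lower in the rescue against both groups, though Ighm was no longer called against WT after rescaling by the median ratio. Igha, the IgA constant region, was at 214 to 2593 TPM in WT, 2268 to 6392 TPM in ∆Firre and 1.35 to 52.2 TPM in the rescue. Ighm, the IgM constant region, was at 4153 ± 1302, 4115 ± 810.3 and 2498 ± 109.9 TPM (SD, n = 4). Ighg1, of IgG1, was at 0.243 to 198 TPM in WT, 0 to 4.10 TPM in ∆Firre and 0 to 166 TPM in the rescue. Of 9 genes of the pre-B receptor and of recombination, 7 were called higher in the rescue than in ∆Firre and 6 than in WT, among them Rag1, part of the recombinase (0.73 ± 0.15 and 0.85 ± 0.15). Of 13 factors that act on the kappa locus 5 were higher and 2 lower than in ∆Firre (7 and 1 after rescaling by the median ratio). Against WT 5 were higher and 3 lower (5 and 1 after rescaling). Pax5, which keeps B cell identity, was up by 1.47 ± 0.22 from ∆Firre and Ebf1, an early B cell factor, by 1.03 ± 0.18. The 2 called lower than in ∆Firre were Ikzf3 and Pou2f1. None of these lists had a call in ∆Firre against WT.

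Of 14 marker genes of antibody-secreting cells, all measured, none was called in ∆Firre against WT (limma), where the median difference was 0.25. In the rescue 9 were called lower and 2 higher than in ∆Firre, and 7 and 1 than in WT (limma). Rescaled by the median ratio these were 8 and 2 against ∆Firre and 3 and 2 against WT. Jchain, the joining chain of secreted IgA and IgM, was at 619 to 1296 TPM in WT, 1369 to 3110 TPM in ∆Firre and 1.18 to 195 TPM in the rescue. It fell by 6.23 ± 0.98 from ∆Firre to the rescue (limma adjusted p = 0.00145). Tnfrsf17, the plasma cell receptor BCMA, was at 0.349 to 3.56 TPM in WT, 5.91 to 11.1 TPM in ∆Firre and 0 to 1.87 TPM in the rescue. Derl3, Prdm1, Slamf7, Xbp1, Edem1, Txndc5 and Tnfrsf13b were also lower than in ∆Firre, and Mzb1 and Sdc1 (syndecan-1) higher. The whole list summed to 1223 to 1973 TPM in WT, 1930 to 3785 TPM in ∆Firre and 503 to 775 TPM in the rescue. Within the rescue Jchain stood at 58.1, 195, 27.7 and 1.18 TPM in replicates 1 to 4, so the library richest in Igkv was not the richest in Jchain. Defining mature B cell genes were low in all groups, with Ms4a1 (CD20) at most 3.64 TPM and Cr2 at most 0.489 TPM. The part of such cells in the Igkv levels was not tested.

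Other cell types moved with the rescue as well. All 7 basophil and mast cell genes were called lower in it against both groups, and their sum was 1073 to 9177 TPM in WT, 2949 to 4354 TPM in ∆Firre and 64.0 to 142 TPM in the rescue. Of 5 NK cell genes 4 were called lower against both groups, which became 3 against ∆Firre after rescaling by the median ratio. The neutrophil list summed to 269 to 1304, 169 to 1609 and 122 to 1590 TPM in the 3 groups and the erythroid list to 19.3 to 110, 39.5 to 145 and 27.5 to 150 TPM, with 1 and 0 genes called. Of 2 tested genes of type 2 innate lymphoid cells, Gata3 and Il1rl1, both were lower against both groups (1 of 2 against WT after rescaling by the median ratio), and of 4 eosinophil genes 2 were lower than in ∆Firre (1 after rescaling) and 1 than in WT. Of 4 tested plasmacytoid dendritic cell genes 2 were higher and 1 lower than in ∆Firre (2 and 0 after rescaling), and 1 was higher than in WT (2 after rescaling). T cell genes summed to at most 21.5 TPM in any library. The part of these differences in the Igkv result was not tested.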

How the data were processed

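Poly(A)+ RNA of sorted CLPs was made into libraries with the CATS RNA-seq kit v2. Per the labels and the study's methods, the authors trimmed adapters (cutadapt), aligned reads to mm10 with TopHat2 2.1.1 and the Gencode vM9 annotation, and counted with featureCounts. The deposited values are TPM per gene, 1 column per library, with the same total in each library; how reads shared by several genes, or strand, were treated is not given in the sources used here. Levels between genes were compared on this per-length scale.

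From these, groups were taken from the titles. Limma 3.58.1 (R 4.3.3) was fitted to log2(TPM + 1), leaving out genes whose mean TPM was under 1, with a variance trend and all 12 libraries, two-sided, Benjamini-Hochberg adjusted over all 14479 genes and called at 0.1; a fold on this scale understates changes of low genes. Read numbers were worked back from the steps between TPM values: 208065 of 208123 values (99.97%) came out whole within 0.002 of a read, gene lengths being chosen from the same values. Intervals and floors cover counting error only, and PCR copies are not independent molecules. Each library is 1 mouse. Mouse numbers 8 and 11 occur in WT and ∆Firre. Deviations of same-numbered libraries correlated at -0.033 and -0.041, where those of differently numbered ones ran from -0.077 to 0.177. So few pairs cannot settle whether the numbers pair mice, and the main fit took the libraries as unpaired.

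Names came from a table of Gencode vM1 IDs (58 members) or from lists of changed genes made on these libraries (23); 2 IDs whose table symbol those lists give to another ID are kept by ID, with no family or position. 1 ID is called Igkv13-85 as in those lists, where the table has Igkv12-47. Which name is right was not settled. This ID was the highest member of ∆Firre replicate 9 (866 TPM). The shares of families 12 and 13 and of the stretches of the locus, above all in that library, therefore depend on the name used. Symbols of list genes were matched through RefSeq synonyms where the table holds an older one. Positions are RefSeq's on GRCm38.p6; sequences are from the Gencode vM1 transcripts (biopython 1.88 global alignment). Members named in the text are the highest of each library, the 10 of highest mean, at most 10 called per comparison by smallest adjusted p, the 3 highest found in 1 library only, and Igkv4-53 and Igkv4-63; Igkv1-99 and Igkv4-91 were added after their values were seen. Members and lists were chosen with earlier results of these data known. Columns of the authors' own comparisons were not used. Alternatives were another pseudocount, filter, scaling, threshold, fit or block, recovered reads, and each library left out.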

Additional observations from a re-analysis of the deposited data

Results flagged for a closer look

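In groups of 4 libraries a value is listed here when its gap to the nearest other library takes most of the group's range (past Dixon's 95% critical value), which chance gives in about 1 of 20 groups. Of 65 groups tested, 16 held such a value. That number cannot be read against the chance share: members were named for being highest in a library or found in 1 library only, which fixes or favours such a gap (Igkv2-112, Igkv4-50 and Igkv4-69 are of the latter kind), and a high member also raises its library's sum and share.

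Among the library totals, summed Igkv was 7452 TPM in ∆Firre replicate 12, against 9631 to 9894 TPM in the other 3. It was 965.6 TPM in rescue replicate 1, against 18.0 to 28.5 TPM. The highest member held 34.95% of the sum in WT replicate 11, against 13.5% to 15.8%.

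Single members stood apart in WT: Igkv12-44 at 1898 TPM and Igkv2-112 at 162 TPM in replicate 11, and Igkv8-21 at 767.4 TPM and Igkv4-69 at 16.34 TPM in replicate 8. In ∆Firre they were Igkv4-50 at 17.48 TPM in replicate 8, Igkv1-88 at 194.7 TPM and Igkv13-85 at 865.9 TPM in replicate 9, Igkv8-24 at 1221 TPM in replicate 11 and Igkv4-53 at 789.5 TPM in replicate 12. In rescue replicate 1 they were Igkv1-88 at 617.9 TPM, Igkv6-15 at 337.4 TPM and Igkv10-96 at 7.62 TPM, and in rescue replicate 4 Igkv8-30 at 0.8654 TPM, which is 3 reads.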

How the results depend on the processing

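No member was called in ∆Firre against WT under any alternative run. The 16 members named by the gene table that were called lower in the rescue than in ∆Firre became 10 without a filter on low values (20.0%, against 9.12% of all genes), 10 at an adjusted p of 0.05 (24.4% against 12.4%) and 5 with limma-voom on recovered reads (12.2% against 15.3%), and ranged from 11 to 17 with 1 library left out. The 3 called against WT became 6 (14.6%) with a pseudocount of 0.1, 5 (12.2%) with only the groups compared and 1 (2.44%) with limma-voom. Over all genes, 19.8%, 12.2% and 10.1% were called lower in these settings. With 1 library left out, 2 to 5 of these members were called lower than in WT. Of the 23 members named in the lists, 17 called against ∆Firre became 10 at an adjusted p of 0.05 (10 to 16 with 1 library left out: 11 without ∆Firre replicate 8 or rescue replicate 1, 10 without ∆Firre replicate 9 or rescue replicate 4), and 10 called against WT became 3 with limma-voom. No call went to higher. Igkc kept its sign and its side of the threshold throughout, but its size moved. With 1 library left out, the Igkc difference of the rescue ranged from -6.40 to -4.12 against ∆Firre and from -5.24 to -2.96 against WT. Divided by Igkc, itself higher in ∆Firre, the summed Igkv was alike in WT (0.396 ± 0.0545) and ∆Firre (0.375 ± 0.0777, SD). The difference in mean log2 was then -0.0905 for ∆Firre against WT, a turned sign but within this spread. It was -1.56 for rescue against ∆Firre and -1.65 for rescue against WT. Without its highest members the rescue's next member held 79.1% of the rest.

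Restricted to the 58 members named by the gene table, an alternative added after seeing the data, 50% of the sum took 2.5 members in WT, 3.5 in ∆Firre and 1.5 in the rescue, the highest member held 26.9% in ∆Firre and 72.1% in the rescue, family 4 held 18.8% in ∆Firre (23.5% in WT), family 6 5.65% (7.32%) and family 8 21.7% (33.5%), stretches 1 and 2 of the locus held 6.64% (6.89%) and 40.8% (22.4%), and stretches 1, 2 and 3 held 0%, 78.3% and 14.8% in the rescue. The causes were not tested. With mouse numbers 8 and 11 as a replicate block (consensus correlation -0.0445) the counts called were 0, 16 and 3 for the 41 tested members, as without it, and Igkc differed by 1.16, -5.65 and -4.49.

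In the rescue, whose libraries had the most reads in all, 3 libraries held 73 to 107 Igkv reads, so family and position shares there rest on a few genes.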
